A study of Homo sapiens with 49 samples.

Results

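The collagen genes were taken as every entry of the expression tables whose symbol reads COL, a number, A and a number. This gave 44 genes of 23621 entries, spike-ins left out, and the same 44 stood in the tables of both neuroblastoma models. By textbook class, 11 were fibrillar, 6 were type IV chains of the basement membrane network, 3 were other collagens of the basement membrane zone, 3 were short chain collagens, 5 were type VI beaded filament chains, 10 were FACITs (fibril-associated collagens with interrupted helices), 4 were transmembrane and 2 belonged to none of these. A gene was tested in a model where its unnormalised FPKM (fragments per kilobase of transcript, scaled to the mapped fragments of the library) averaged 1 or more over all libraries of that model, which 14 collagens did in SHEP-21N and 11 in BE(2)-C. Of the 44, 6 passed in both models, 19 in either and 25 in neither.

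Collagens are secreted or membrane-bound proteins whose chains are wound together into a helix, and many types need chains from more than 1 gene. Fibrillar collagens form the tensile fibrils of connective tissue, type IV forms the sheet of the basement membrane, type VI forms beaded filaments around cells, and FACITs sit on the surface of fibrils. In neuroblastoma, cells of the mesenchymal state are known for matrix genes and cells of the adrenergic state for noradrenergic genes.

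Polyadenylated RNA was sequenced from 2 engineered human neuroblastoma cell lines. SHEP-21N carries a TET-off MYCN, so that doxycycline (0.2 µg/ml) shuts MYCN down. Its libraries were made at 0 h (2 libraries) and at 2, 4, 6, 8, 16 and 24 h of doxycycline (3 each). The BE(2)-C cells carried a TET-on short hairpin RNA against TWIST1, which doxycycline (0.5 µg/ml) induces, with libraries without doxycycline and at 3, 6, 12, 24 and 48 h (3 each). MYCN is a MYC-family transcription factor, and TWIST1 is a basic helix-loop-helix factor known for mesenchymal programmes. Libraries are numbered here as in the table columns, from 0, and the 2 libraries of 0 h carry the numbers 1 and 2. No label says that libraries of a group came from separate cultures, so p-values measure the spread between these libraries, which may be technical. Every treated library received doxycycline, and the drug and the loss of its target cannot be told apart. The labels give libraries of 8, 16 and 24 h in SHEP-21N the index sequences of those of 0, 2 and 4 h and name no pools, so time and sequencing pool cannot be told apart.

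Cell number had been determined and ERCC spike-in RNA added at lysis, and each model has a table of FPKM rescaled to the spike-ins and a table of unnormalised FPKM. Differences were tested on log2(rescaled FPKM + 1) with limma, two-sided, with Benjamini-Hochberg adjustment over all genes tested (11867 in SHEP-21N, 11433 in BE(2)-C), and a gene was called at an adjusted p under 0.05. Log2 differences below are on this scale, which understates the change of low genes. The tables give no read counts, so the depth of a library is unknown. Spike-in sums ranged from 26061 to 47480 unnormalised FPKM in SHEP-21N and from 15455 to 140361 in BE(2)-C, and from 32692 to 36589 in both after rescaling. MYCN stood at 723 and 855 rescaled FPKM in SHEP-21N at 0 h and between 11.2 and 17.3 at 24 h. TWIST1 in BE(2)-C stood at 91.8, 70.3 and 82.0 without doxycycline and at 7.65, 11.2 and 4.60 at 48 h. In bulk RNA, fewer cells of a type and less RNA per cell cannot be told apart.

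The models had different collagen repertoires, led by fibrillar and type IV chains in SHEP-21N and by type VI chains in BE(2)-C. The unnormalised FPKM of the 44 collagens summed to 589 and 626 in the control libraries of SHEP-21N, of which fibrillar collagens made up 43.2% to 44.4%, type IV chains 23.4% to 23.6% and type VI chains 15.1% to 15.9%. In BE(2)-C without doxycycline the sum was 174 to 189, with 70.6% to 73.9% from type VI chains, 10.1% to 13.2% from type IV chains and 2.38% to 3.44% from fibrillar collagens. The tables of the models were made separately, so these levels stand side by side and were not tested against each other.

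Markers fixed for the cell states followed the same split. All 10 mesenchymal markers reached a mean of 1 FPKM in SHEP-21N (summed level 876 to 921 at 0 h), whereas 3 of 10 adrenergic markers did, and PHOX2A, DBH, TH and CHGA averaged under 0.1. In BE(2)-C all 10 adrenergic markers did (2659 to 3555 without doxycycline) and 4 of 10 mesenchymal ones (209.9 to 284 without doxycycline and 204 to 209 at 48 h), with THY1 at a mean of 128, VIM at 82.5, and PRRX1, YAP1, NOTCH2 and FOSL1 under 0.1. THY1 was the mesenchymal marker listed higher in BE(2)-C than in SHEP-21N, where its mean was 37.2, though the tables were processed separately and this was not tested. The mesenchymal sum in SHEP-21N at 24 h (871 to 925) overlapped that at 0 h, while the adrenergic sum was lower (42.6 to 45.4 against 60.7 to 64.8). Of 5 endothelial markers, 0 reached a mean of 1 in SHEP-21N (summed level 0.0339 to 0.0494 at 0 h and 0.0940 to 0.128 at 24 h) and 1 in BE(2)-C, CDH5 at 1.25 (sum 1.18 to 1.70 without doxycycline and 0.700 to 0.749 at 48 h), with PECAM1, VWF, TEK and KDR under 0.1 in both. Of 5 blood markers, 0 did in SHEP-21N and 1 in BE(2)-C, HBB at 2.19, which 3 h library 1 made with 38.4 beside at most 0.189 in any other library, with PTPRC, CD3E and LYZ under 0.1 in both. Of 5 Schwann cell markers, 0 did in SHEP-21N (sum 0.234 to 0.243 at 0 h and 0.569 to 0.666 at 24 h) and 1 in BE(2)-C, S100B at 5.50, and SOX10 was under 0.1 in both. Of 5 cartilage markers, SOX9 alone reached 1, with 2.30 in SHEP-21N and 1.45 in BE(2)-C, and the cartilage sum in SHEP-21N went from 1.63 to 1.93 at 0 h to 3.41 to 3.85 at 24 h. The part of these cell type markers in the results below was not tested. Of collagens known from cartilage, COL2A1, COL9A1, COL10A1 and COL11A1 had a mean under 0.1 in both models, while COL9A2 (2.51) and COL9A3 (1.56) passed 1 in BE(2)-C and COL27A1 (3.74) in SHEP-21N.

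**Figure D1:**
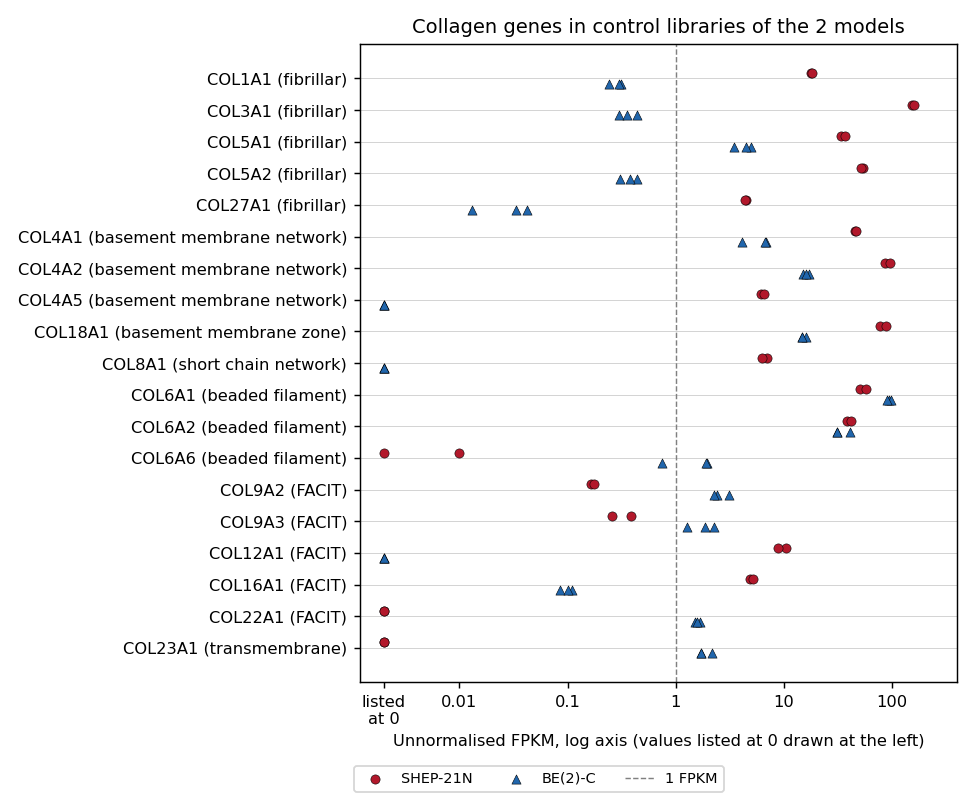
Unnormalised FPKM (log axis) of the 19 collagens tested in either model, in the 2 control libraries of SHEP-21N (circles) and the 3 of BE(2)-C (triangles); each point is a library, the dashed line marks 1 FPKM and values listed at 0 are drawn at the left edge. Fibrillar, type IV and short chain collagens lie further right in SHEP-21N, and COL6A1 lies further right in BE(2)-C (89.7 to 98.1 against 50.6 to 57.7).

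In untreated SHEP-21N the highest collagen was COL3A1, a homotrimeric fibrillar collagen of elastic tissues, at 152 and 159 unnormalised FPKM. It was followed by COL4A2 (86.2 and 94.6) and COL18A1 (77.2 and 86.7), whose ranges overlapped. COL18A1 encodes the basement membrane proteoglycan whose C-terminal fragment is endostatin. COL6A1 (50.6 and 57.7) and COL5A2 (51.4 and 53.1) overlapped as well, and COL4A1 (45.6 and 46.4), COL6A2 (38.1 and 41.8), COL5A1 (33.9 and 36.7) and COL1A1 (17.6 and 18.0) followed without overlap. Of the remaining tested members, COL12A1 had 8.76 and 10.4, COL8A1 and COL4A5 lay between 6.10 and 7.02, and COL16A1 and COL27A1 between 4.38 and 5.13. The lowest tested collagen was COL27A1, with a mean of 3.74 over all 20 libraries. Just under the limit was COL9A3 at 0.556. Of the 30 untested collagens in SHEP-21N, 24 averaged under 0.1, and 6 were listed at 0 in every library (COL6A5, COL9A1, COL20A1, COL22A1, COL23A1 and COL25A1).

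In untreated BE(2)-C, COL6A1 stood above every other collagen at 93.6, 98.1 and 89.7 unnormalised FPKM, 51.6% to 52.2% of the collagen sum. COL6A2 followed at 31.1, 40.4 and 30.9. COL4A2 (15.0 to 16.9) and COL18A1 (14.5 to 16.0) overlapped, as did COL4A1 (4.05 to 6.76) and COL5A1 (3.46 to 4.94). The remaining 5 tested collagens lay between 0.751 and 3.09. They were COL9A2 and COL9A3, chains of the FACIT type IX known from cartilage; COL22A1, a FACIT of tissue junctions; COL23A1, a transmembrane collagen; and COL6A6. Just inside the limit was COL9A3, with a mean of 1.56, and just outside was COL21A1 at 0.622. Of the 33 untested collagens, 26 averaged under 0.1, and COL8A1 was listed at 0 in all 18 libraries.

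Partner chains of 1 protein were not always present together. COL1A1, whose chains usually join with that of COL1A2 in type I collagen, averaged 18.8 unnormalised FPKM in SHEP-21N beside 0.0709 for COL1A2. COL6A1 and COL6A2 form type VI collagen with COL6A3 or a chain that can take its place. COL6A3 averaged 0.0457 in SHEP-21N and 0.186 in BE(2)-C, and COL6A6, an alternative to it, averaged 0.00302 and 1.96. The X-linked basement membrane chain COL4A5 averaged 6.61 in SHEP-21N beside 0.0995 for its head-to-head neighbour COL4A6, and its kidney partners COL4A3 and COL4A4 stayed at 0.0110 and 0.0385.

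Neighbouring collagen genes were matched through RefSeq (GRCh38.p14), which put 7 collagen pairs next to each other. In the pairs COL4A1 and COL4A2 on chromosome 13, COL6A1 and COL6A2 on chromosome 21, and COL4A3 and COL4A4 on chromosome 2, both genes fell on the same side of 1 FPKM in both models. COL3A1 and COL5A2 on chromosome 2 averaged 194.5 and 73.8 in SHEP-21N and 0.486 and 0.397 in BE(2)-C. The pairs that split were COL4A5 and COL4A6 on chromosome X in SHEP-21N, and COL6A5 (0.0697) and COL6A6 on chromosome 3 in BE(2)-C. COL9A1 and COL19A1 on chromosome 6 were under 0.1 throughout.

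Promoter windows from RefSeq, 250 bases before to 50 after a start site, matched 32 of the 44 collagens with 44 windows, and 12 of the collagens tested in either model. The 3 windows below are shown because COL4A2 is the highest type IV chain and shares its start region with COL4A1, because COL4A5 is expressed without its opposite neighbour, and because COL12A1 was the 1 collagen called higher 6 h after MYCN shutdown. The COL4A1 and COL4A2 starts lie 127 bases apart on opposite strands, so that their windows overlap by 226 bases, and those of COL4A5 and the nearer start of COL4A6 lie 380 bases apart. Capitals mark CCAAT on either strand and GGGCGG in COL4A2, CCAAT on either strand in COL4A5, and CANNTG (the E-box, in which N is any base) in COL12A1. COL4A2 lies on the plus strand at chr13:110307034-110307333, COL4A5 on the plus strand at chrX:108439588-108439887 and COL12A1 on the minus strand at chr6:75206004-75206303.
COL4A2: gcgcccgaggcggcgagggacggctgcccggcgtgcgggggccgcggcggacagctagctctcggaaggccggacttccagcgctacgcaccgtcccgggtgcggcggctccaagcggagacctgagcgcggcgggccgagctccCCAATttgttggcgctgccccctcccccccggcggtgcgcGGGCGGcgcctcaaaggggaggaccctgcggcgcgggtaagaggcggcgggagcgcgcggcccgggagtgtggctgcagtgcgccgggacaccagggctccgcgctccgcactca
COL4A5: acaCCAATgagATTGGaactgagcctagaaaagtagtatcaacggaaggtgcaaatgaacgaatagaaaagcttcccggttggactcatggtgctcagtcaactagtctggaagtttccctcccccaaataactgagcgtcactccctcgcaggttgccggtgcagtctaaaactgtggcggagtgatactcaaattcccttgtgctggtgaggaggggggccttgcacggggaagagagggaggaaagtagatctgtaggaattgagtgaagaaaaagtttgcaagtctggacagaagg
COL12A1: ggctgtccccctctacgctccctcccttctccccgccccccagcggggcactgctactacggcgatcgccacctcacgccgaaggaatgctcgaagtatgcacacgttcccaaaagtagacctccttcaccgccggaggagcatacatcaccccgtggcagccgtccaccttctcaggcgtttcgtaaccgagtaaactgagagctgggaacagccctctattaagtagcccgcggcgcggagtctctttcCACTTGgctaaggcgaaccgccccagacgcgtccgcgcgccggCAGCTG

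The 4 motifs were searched on both strands in all 35116 windows, with CACGTG counted within CANNTG as well. CACGTG, the E-box that MYC proteins prefer, was in 0 of the 44 windows of 32 collagens and in 7.26% of all windows. COL1A1, COL3A1, COL5A2 and COL6A1 were among the collagens without a window and were not searched. CANNTG, the wider E-box that TWIST1 and other helix-loop-helix factors bind, was in 25 of 44 (56.8%) against 68.7% of all, and in those of 5 of the 12 matched collagens that were tested. GGGCGG, the core of GC boxes, was in 24 of 44 (54.5%) against 45.0% of all, and in those of 11 of the 12. CCAAT was in 14 of 44 (31.8%) against 34.6% of all, and in those of 3 of the 12. In the windows shown, the CCAAT of COL4A2 lies at -105 and its GGGCGG at -65, counted in bases from the start site, the 2 CCAAT copies of COL4A5 lie at -247 and -239, and the E-boxes of COL12A1 lie at 1 and 44. A match is a description of these letters only.

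After MYCN shutdown in SHEP-21N, most collagens called at 6 h were lower and most called at 16 and 24 h were higher. None was called at 2 or 4 h, 5 were called at 6 h (1 higher, 4 lower), 2 at 8 h (1 higher, 1 lower), 3 at 16 h (all higher) and 6 at 24 h (4 higher, 2 lower). Over all genes tested, 3.17% were called higher and 7.54% lower at 6 h, 3.92% and 3.83% at 8 h, 5.13% and 3.04% at 16 h, and 6.16% and 32.4% at 24 h. The median log2 difference of the 14 collagens was -0.45 at 6 h beside -0.14 over all genes tested, 0.19 beside -0.03 at 16 h, and -0.12 beside -0.31 at 24 h. At 2 h no collagen had an unadjusted p under 0.05 in limma, where 0.00% of all genes were called higher and 0.0506% lower. At 4 h 3 collagens had one, where 0.00843% were called higher and 0.0758% lower.

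On the unnormalised scale the spread between libraries was smaller, and more collagens were called in both directions from 4 to 16 h. At 24 h more were called higher and as many lower. At 2 h limma called 0 collagens on this scale, with 4 at an unadjusted p under 0.05, beside 0.236% of all genes higher and 0.345% lower. Later counts were 2 higher and 6 lower at 4 h, 3 and 9 at 6 h, 4 and 8 at 8 h, 7 and 1 at 16 h, and 6 and 2 at 24 h. The share of all genes called higher and lower was 15.8% and 18.1% at 4 h, 26.8% and 29.8% at 6 h, 25.0% and 29.2% at 8 h, 23.8% and 27.5% at 16 h, and 28.9% and 36.4% at 24 h. With rescaled values centred on the median of each library, 0 collagens were called at 2 h, beside 0.0590% of all genes higher and 0.270% lower, and 2 higher and 3 lower at 4 h, beside 13.5% and 13.6%. Centred counts were 3 and 9 at 6 h (27.1% and 24.1% of all genes), 4 and 8 at 8 h (24.1% and 23.1%), 7 and 1 at 16 h (21.7% and 25.4%) and 6 and 2 at 24 h (29.6% and 32.2%). The sum of the 44 collagens followed the same course, from 589 and 626 unnormalised FPKM at 0 h to 528 to 557 at 6 h and 782 to 843 at 24 h, and no 2 of these groups overlapped. On the rescaled table the sums of 604 and 727 at 0 h, 507 to 569 at 6 h and 606 to 869 at 24 h overlapped between 0 and 24 h.

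**Figure D2:**
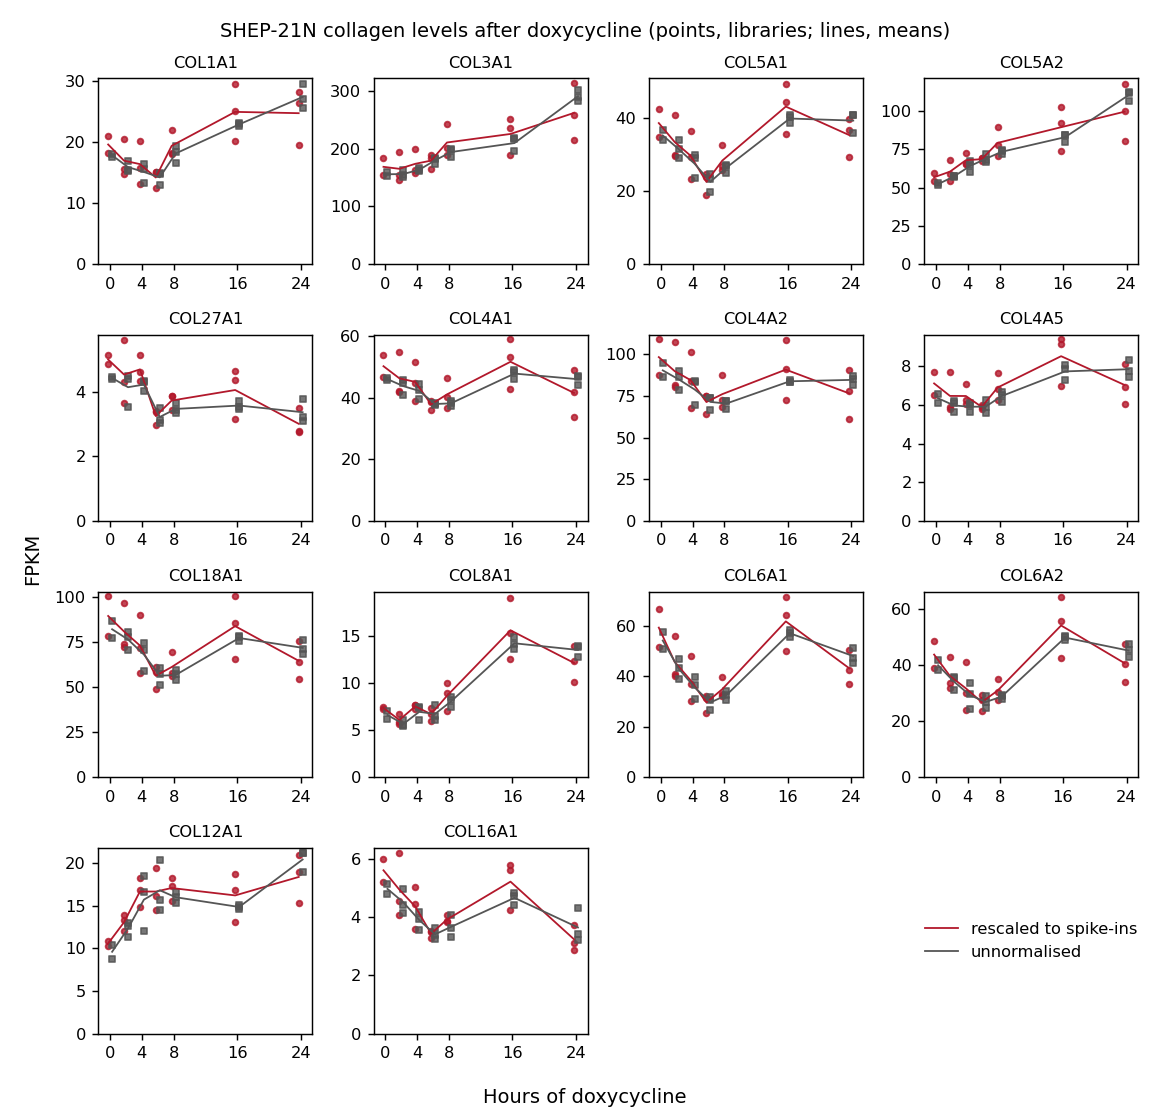
FPKM of the 14 collagens tested in SHEP-21N against hours of doxycycline (linear axes from 0), with rescaled values as circles, unnormalised values as squares, each point a library and lines through the means. COL6A1, COL5A1, COL6A2 and COL18A1 reach their lowest means at 6 h, and COL3A1, COL5A2 and COL12A1 end at 24 h above every library of 0 h.

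Among fibrillar collagens, COL3A1 and COL5A2 rose, and COL5A1 fell at 6 h and overlapped its 0 h values at 24 h. COL3A1 stood at 154 and 183 rescaled FPKM at 0 h and at 313, 258 and 214 at 24 h, all above the 0 h libraries (log2 difference 0.62 ± 0.20 SE, adjusted p = 0.0219). In the unnormalised table it went from 152 and 159 to 282, 289 and 301 (0.90 ± 0.05). COL5A2, a regulatory chain of type V collagen that sets fibril width, stood at 54.1 and 59.5 rescaled FPKM at 0 h, at 73.7, 102 and 92.4 at 16 h and at 118, 100 and 80.6 at 24 h. The log2 difference was 0.64 ± 0.18 SE at 16 h, with an adjusted p of 0.0364. At 24 h it was 0.79 ± 0.18, with an adjusted p of 0.00366. Every library from 4 h onwards was above both 0 h libraries on either scale. COL3A1 and COL5A2 are the neighbours on chromosome 2.

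COL5A1, the partner chain of COL5A2, stood at 34.8 and 42.6 rescaled FPKM at 0 h and at 23.9, 24.8 and 18.9 at 6 h, all below (log2 difference -0.76 ± 0.21 SE, adjusted p = 0.0311). At 24 h its libraries were at 39.9, 36.7 and 29.5, which overlapped 0 h (-0.13 ± 0.21, adjusted p = 0.643; unnormalised 0.15 ± 0.10, also not called). COL1A1, the main chain of type I collagen, stood at 18.2 and 20.9 at 0 h, at 15.1, 15.0 and 12.4 at 6 h and at 28.2, 26.4 and 19.5 at 24 h. It was not called against 0 h on the rescaled scale (0.31 ± 0.20 at 24 h, adjusted p = 0.234). Unnormalised, it was called lower at 6 h (-0.31 ± 0.09) and higher at 24 h (0.59 ± 0.09, adjusted p = 2.17e-05). COL27A1, a fibrillar collagen of cartilage, fell from 4.85 and 5.14 to 3.36, 3.40 and 2.97 at 6 h and 3.49, 2.77 and 2.74 at 24 h (-0.59 ± 0.15, adjusted p = 0.00786). The 6 untested fibrillar collagens were COL1A2, COL2A1, COL5A3, COL11A1, COL11A2 and COL24A1, with means from 0.00685 to 0.411 unnormalised FPKM.

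The ratio of the type V chains moved with this. COL5A2 stood at 1.57 and 1.40 times COL5A1 at 0 h in unnormalised FPKM, at 2.91, 2.70 and 3.64 times at 6 h, at 2.07, 2.07 and 2.09 times at 16 h and at 2.95, 2.73 and 2.75 times at 24 h. Each library after 0 h lay above both of 0 h. The mean was 1.48 ± 0.116 (SD, n = 2) at 0 h, 3.09 ± 0.495 (SD, n = 3) at 6 h and 2.81 ± 0.121 (SD, n = 3) at 24 h. Ratios were not tested.

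Basement membrane collagens were lower at 6 h without passing the test on the rescaled scale. COL4A1 and COL4A2, which join in the main type IV molecule of most tissues, had log2 differences of -0.40 ± 0.19 SE (adjusted p = 0.167) and -0.45 ± 0.22 (adjusted p = 0.177). COL4A2 stood at 87.5 and 109 rescaled FPKM at 0 h and at 75.3, 74.9 and 63.9 at 6 h, without overlap. COL4A1 stood at 46.6 and 53.8 at 0 h and at 38.8, 38.7 and 36.0 at 6 h, also without overlap. Both were called lower at 6 h on the unnormalised scale (-0.27 ± 0.05 and -0.34 ± 0.08), and neither at 24 h on either scale. The ratio of COL4A2 to COL4A1 was 1.89 and 2.04 at 0 h and 1.81 to 1.87 at 24 h. COL18A1 stood at 78.5 and 100.3 rescaled FPKM at 0 h and at 58.5, 61.3 and 48.8 at 6 h (-0.66 ± 0.22, adjusted p = 0.0634). Unnormalised, COL18A1 was called lower at 6 h (-0.54 ± 0.09) and not at 24 h (-0.19 ± 0.09, adjusted p = 0.0832). COL4A5 was called in no rescaled comparison. Its difference at 24 h was -0.02 ± 0.15 rescaled and 0.27 ± 0.06 unnormalised (adjusted p = 0.00127), so that its direction depended on the scale.

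COL6A1 had the lowest difference of the 14 at 6 h, followed by COL5A1 and its own partner COL6A2. COL6A1 stood at 51.7 and 66.8 rescaled FPKM at 0 h, at 36.9, 30.4 and 48.1 at 4 h and at 31.3, 32.0 and 25.5 at 6 h. Every library of 4, 6 and 8 h was below both of 0 h. It fell by 0.97 ± 0.22 SE on the log2 scale at 6 h (adjusted p = 0.0132) and by 0.74 ± 0.22 at 8 h (adjusted p = 0.045). At 16 h the libraries had 49.9, 71.2 and 64.1, overlapping 0 h, and at 24 h 50.3, 42.3 and 36.9 (-0.45 ± 0.22, adjusted p = 0.107). COL6A2 went from 39.0 and 48.4 to 27.7, 29.2 and 23.5 at 6 h (-0.68 ± 0.22, adjusted p = 0.0535; unnormalised -0.56 ± 0.10, called). Type VI chains were 15.1% to 15.9% of the collagen sum at 0 h, 9.72% to 10.9% at 6 h and 11.3% to 11.7% at 24 h, while fibrillar collagens went from 43.2% to 44.4% to 52.4% to 53.4% and 57.7% to 58.1%. The ratio of COL6A1 to COL6A2 was 1.33 and 1.38 at 0 h and 1.04 to 1.08 at 24 h, and each library after 0 h lay below both of 0 h.

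The FACITs moved in opposite directions. COL12A1, which sits on type I fibrils in dense connective tissue, stood at 10.9 and 10.2 rescaled FPKM at 0 h. It had 13.8, 13.3 and 12.0 at 2 h, 16.8, 18.3 and 14.8 at 4 h, 16.1, 14.5 and 19.4 at 6 h and 20.9, 18.9 and 15.3 at 24 h. All 18 treated libraries were above both of 0 h, and it was the 1 collagen called higher at 6 h (0.60 ± 0.16 SE, adjusted p = 0.0292) and 8 h (0.64 ± 0.16, adjusted p = 0.0266). It remained higher at 16 h (0.56 ± 0.16, adjusted p = 0.0437) and 24 h (0.73 ± 0.16, adjusted p = 0.00325). COL16A1, a FACIT of fibroblasts and smooth muscle, fell from 5.21 and 6.00 to 3.49, 3.53 and 3.28 at 6 h (-0.57 ± 0.16, adjusted p = 0.0292) and 3.73, 2.87 and 3.13 at 24 h (-0.64 ± 0.16, adjusted p = 0.00542). At 16 h it overlapped 0 h at 4.25, 5.78 and 5.62.

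COL8A1, a short chain collagen of vessel walls and the corneal endothelium's membrane, rose late. It stood at 7.47 and 7.26 rescaled FPKM at 0 h, at 6.76, 5.98 and 7.37 at 6 h, at 12.5, 19.0 and 15.3 at 16 h and at 13.9, 12.4 and 10.1 at 24 h. The 16 h and 24 h libraries were all above 0 h (log2 difference 0.97 ± 0.17 SE at 16 h, adjusted p = 0.00237; 0.64 ± 0.17 at 24 h, adjusted p = 0.00744). Its partner COL8A2 averaged 0.0636 unnormalised FPKM.

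**Figure D3:**
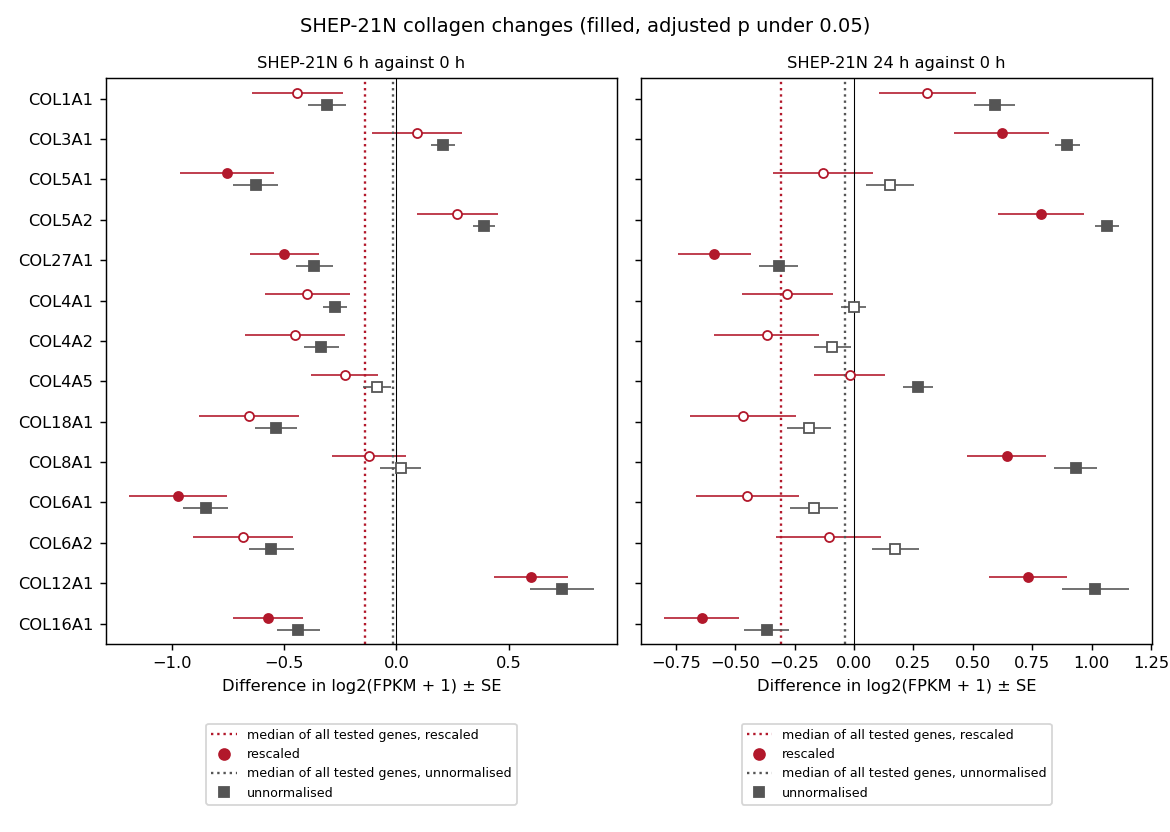
Difference in log2(FPKM + 1) from 0 h (± SE of the fit) for the 14 collagens tested in SHEP-21N at 6 h (left) and 24 h (right), rescaled (circles) and unnormalised (squares), filled where the adjusted p is under 0.05; dotted lines are the medians of all genes tested. At 6 h most collagens lie left of both medians with COL12A1 furthest right, and at 24 h COL1A1, COL3A1, COL5A2, COL8A1 and COL12A1 lie right of 0 on both scales.

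A comparison of 24 h with 6 h was added after the time courses had been seen. On the rescaled scale, 2 of 14 collagens were called higher and 0 lower, COL1A1 (log2 difference 0.75 ± 0.18 SE, adjusted p = 0.0274) and COL8A1 (0.76 ± 0.15, adjusted p = 0.00892), beside 1.59% higher and 3.15% lower of all genes. Unnormalised, 11 were called higher and 0 lower, beside 18.0% and 25.0% of all genes, and the 3 not called were COL12A1, COL16A1 and COL27A1. Centred values gave 11 and 0 as well, beside 16.5% and 22.4%. The median of the 14 was 0.36 beside -0.18 over all genes when rescaled, and 0.52 beside -0.04 unnormalised.

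Many calls on the rescaled scale were lost when 1 library was left out. Shares of all genes called in these fits are not given here. Without 0 h library 2, no collagen was called at 6 h, and at 24 h 1 was called higher and 0 lower. Without 0 h library 1, COL6A1 was the 1 collagen left of those called at 6 h, and without 6 h library 2 none was called. COL3A1 at 24 h lost its call without 0 h library 1 (adjusted p = 0.143) or 2 (0.0795) and without 24 h library 0 (0.0517) or 1 (0.0508), whereas COL5A2 at 24 h kept it whichever library was left out. COL1A1 at 24 h against 6 h lost its call without any 1 of 4 libraries (adjusted p from 0.0691 to 0.125), and COL8A1 without 24 h library 1 (0.0509). On the unnormalised scale the calls at 6 h and 24 h survived each library left out, except that COL1A1 at 6 h had an adjusted p of 0.0581 without 0 h library 2.

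Genes that make, fold, process, crosslink, degrade and bind collagen were described from lists, with FN1 also among the mesenchymal markers. Of 14 chain-modifying enzymes, 13 were tested in SHEP-21N, and at 24 h 1 was called higher and 6 lower, with a median log2 difference of -0.52 (unnormalised 2 and 7, median -0.24). The counts of this and the following lists stand beside those of all genes tested in that comparison, of which 6.16% rose and 32.4% fell when rescaled (median -0.31), against 28.9% and 36.4% unnormalised (median -0.04). PLOD3, a lysyl hydroxylase that also glycosylates collagen, fell from 101 and 127 rescaled FPKM to 75.4, 66.3 and 52.6 (-0.81, adjusted p = 0.0115). GLT25D2, a collagen galactosyltransferase, fell as well (-0.85, adjusted p = 0.00159). PLOD2, the lysyl hydroxylase of the telopeptides, rose from 5.41 and 4.75 to 9.93, 8.54 and 8.07 (0.69, adjusted p = 0.00259). Of 15 chaperones and secretion genes, 14 were tested and 2 were higher and 4 lower (median -0.09), with TMEM38B at -0.90, LEPREL4 at -0.88 and FKBP10, a prolyl isomerase of the endoplasmic reticulum, at -0.78, all called. On the unnormalised scale 7 of the 14 were higher and 4 lower, and the median was 0.18, so that its sign depended on the scale.

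Of 11 genes of propeptide processing, 6 were tested, 0 were higher and 2 lower (median -0.14; unnormalised 2 and 2, median 0.14). PCOLCE, the enhancer of procollagen C-proteinase, fell from 284 and 354 rescaled FPKM to 144, 125 and 114 (log2 difference -1.31, adjusted p = 0.000466), and PCOLCE2 by -0.58 (adjusted p = 0.0264). Of 7 crosslinking genes, 4 were tested, with LOXL4, a lysyl oxidase, called higher (0.53, adjusted p = 0.0289) and the transglutaminase TGM2 called lower (-0.87, adjusted p = 0.00175). The median of the 4 was 0.30, and unnormalised 3 were higher and 1 lower with a median of 0.58. LOXL4 lost its rescaled call when any of 4 single libraries was left out (adjusted p from 0.055 to 0.198). Of 17 genes of breakdown and its inhibitors, 11 were tested and 1 was higher and 3 lower (median 0.28; unnormalised 7 and 3, median 0.56). FAP, a serine protease, was the higher one (0.69, adjusted p = 0.00221), and TIMP1, an inhibitor of metalloproteinases (-0.88, adjusted p = 0.0105), and the gelatinase MMP2 (-0.63, adjusted p = 0.0276) were among those lower.

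Of 9 collagen receptors, 4 were tested in SHEP-21N, and 2 were called higher and 0 lower (median 0.54; unnormalised 4 and 0, median 0.80). ITGB1, the beta chain of the collagen-binding integrins, rose from 108 and 97.6 rescaled FPKM to 229, 182 and 168 (log2 difference 0.89, adjusted p = 0.00253). DDR2, a receptor tyrosine kinase for fibrillar collagens, rose from 11.8 and 10.2 to 20.7, 19.9 and 15.8 (0.72, adjusted p = 0.00421). Of 10 small proteoglycans and fibril partners, 8 were tested and 1 was higher and 2 lower (median 0.21; unnormalised 6 and 2, median 0.49). POSTN, a matricellular protein of collagen-rich tissue, was higher (0.74, adjusted p = 0.00813), and THBS2 (-1.15, adjusted p = 0.000172) and BGN (-0.74, adjusted p = 0.0224) were lower. The values of PCOLCE, ITGB1 and DDR2 did not overlap between 0 h and 24 h. Of the 18 partner genes named here as called, 14 lost the rescaled call without 0 h library 2 (adjusted p from 0.0521 to 0.258), and the 4 that kept it were GLT25D2, PCOLCE, THBS2 and TMEM38B. PCOLCE2 and MMP2 also lost theirs without 24 h library 1 (0.0748 and 0.0563) or 2 (0.107 and 0.105), and FKBP10 (0.053) and BGN (0.0897) without 24 h library 2.

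In BE(2)-C, induction of the hairpin against TWIST1 was followed by lower rescaled values of most collagens at 48 h, when nearly every gene was lower. At 3, 6, 12 and 24 h limma called 0 of 11 collagens, and none had an unadjusted p under 0.05. The share of all genes called higher was 0.0175% at each of these times, and the share called lower was 0.0175% at 3 and 6 h, 0.0262% at 12 h and 0.586% at 24 h. Unnormalised values gave 0 calls at 3, 6 and 12 h, with 0, 2 and 1 collagens at an unadjusted p under 0.05, beside 0.00%, 0.00875% and 0.752% of all genes higher and 0.0175%, 0.472% and 3.33% lower. At 48 h, 9 of 11 were called lower and 0 higher, beside 93.3% of all genes lower and 0.131% higher. The median log2 difference was -1.23 for the collagens and -1.36 over all genes tested, so the collagens moved about as the table did. MYCN was lower as well (-1.89, adjusted p = 6.52e-05; unnormalised -0.20, adjusted p = 0.00275), and its part in the collagen values was not tested. On the unnormalised scale, where the median of all genes was 0.02, 2 were higher and 6 lower at 48 h, beside 18.1% and 21.3% of all genes, and their median was -0.17. With rescaled values centred on the median of each library, 4 were higher and 3 lower, beside 30.6% and 21.9%. Centring was done after the + 1, which understates the fall of low genes, so it can lift low genes above 0. COL9A2 and COL23A1 were at 0.43 and 0.44 centred and at -0.08 and -0.28 unnormalised.

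The collagens called lower at 48 h on the rescaled, unnormalised and centred scales were COL6A1, COL6A2 and COL18A1. COL6A2 stood at 49.3, 37.9 and 41.0 rescaled FPKM without doxycycline and at 9.91, 15.1 and 7.02 at 48 h (log2 difference -1.96 ± 0.34 SE, adjusted p = 3.52e-05). Unnormalised it went from 31.1, 40.4 and 30.9 to 24.5, 24.0 and 27.2 (-0.41 ± 0.08, adjusted p = 0.0012), and centred it was also lower (-0.53 ± 0.10). COL18A1 went from 22.8, 14.8 and 19.8 rescaled FPKM to 4.30, 6.72 and 2.89 (-1.87 ± 0.33, adjusted p = 4.27e-05). Its unnormalised values fell from 14.5, 16.0 and 14.7 to 10.4, 10.3 and 10.8 (-0.48 ± 0.05), and the centred difference was -0.45 ± 0.07, so that it was lower on all 3 scales. COL6A1 went from 149, 92.7 and 118 rescaled FPKM to 30.7, 49.4 and 23.6 (-1.80 ± 0.36), and on the unnormalised scale from 93.6, 98.1 and 89.7 to 77.6, 80.6 and 92.7, which overlapped (-0.17 ± 0.06, adjusted p = 0.0385). COL6A1 lost that unnormalised call when any of 5 single libraries was left out (adjusted p from 0.05 to 0.18).

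COL5A1, the 1 fibrillar collagen tested in BE(2)-C, went from 7.59, 3.27 and 6.02 rescaled FPKM to 1.10, 1.63 and 0.833 (log2 difference -1.56 ± 0.31 SE, adjusted p = 0.000115). It was lower in the unnormalised table at 24 h (-0.41 ± 0.09, adjusted p = 0.00571) and 48 h (-0.58 ± 0.09, adjusted p = 0.000212), and not called at 48 h after centring (-0.13 ± 0.11). At such low rescaled values the + 1 understates a fall, so the centred value does not show that COL5A1 fell less than other collagens. The unnormalised table also called COL18A1, COL6A1 and COL6A2 lower at 24 h, 4 of 11 in all with 0 higher, beside 9.55% higher and 13.6% lower of all genes. Centred, COL5A1 and COL6A2 were lower at 24 h, 2 of 11, beside 8.00% and 9.81%. COL4A1 and COL4A2 were called lower when rescaled (-1.23 ± 0.35 and -1.50 ± 0.35), near the median of all genes, and were not called unnormalised (0.01 ± 0.12 and -0.04 ± 0.05) or centred (0.20 ± 0.10 and -0.08 ± 0.06).

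COL22A1 and COL6A6 were the 2 collagens not called lower at 48 h on the rescaled scale. COL6A6 stood at 2.95, 0.821 and 2.55 rescaled FPKM without doxycycline and at 1.09, 1.71 and 0.856 at 48 h, which overlapped (log2 difference -0.43 ± 0.30 SE, adjusted p = 0.169). Unnormalised it stood at 1.93, 0.751 and 1.90 and then at 2.38, 2.42 and 2.78, all higher (0.52 ± 0.15, adjusted p = 0.0104). COL22A1 stood at 1.68, 1.50 and 1.57 unnormalised and then at 2.13, 2.26 and 2.34, all higher (0.33 ± 0.06, adjusted p = 0.000537), while its rescaled values of 2.58, 1.52 and 2.11 and of 0.993, 1.60 and 0.741 overlapped (-0.55 ± 0.27, adjusted p = 0.0557). The direction of both therefore flipped with the scale, down on the rescaled and up on the unnormalised and centred values. COL9A2, COL9A3 and COL23A1 fell by 0.99, 1.03 and 0.98 on the rescaled log2 scale, and their centred differences were 0.43, 0.39 and 0.44. The centred difference of COL9A3 was not called in limma (adjusted p = 0.115). These are low genes, with control means of 2.59, 1.79 and 1.86 unnormalised FPKM, whose fall the + 1 understates. The values therefore do not show that they fell less than other genes. Unnormalised, COL9A3 (-0.43 ± 0.12, adjusted p = 0.00938) and COL23A1 (-0.28 ± 0.09, adjusted p = 0.0164) were called lower and COL9A2 was not (-0.08 ± 0.09). COL23A1 lost that call without 48 h library 2 (adjusted p = 0.0663).

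**Figure D4:**
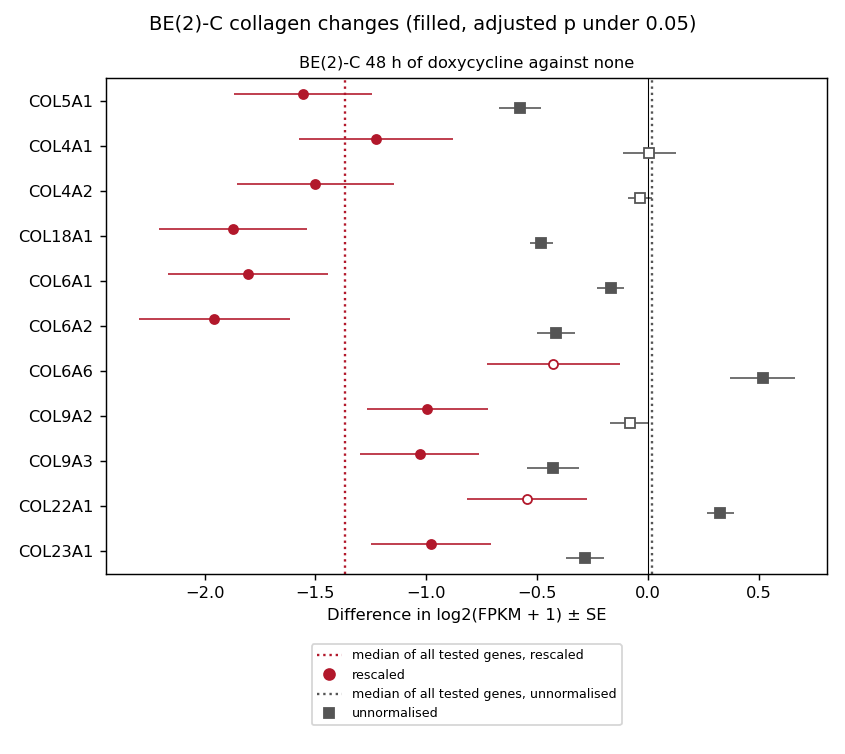
Difference in log2(FPKM + 1) between 48 h of doxycycline and none (± SE of the fit) for the 11 collagens tested in BE(2)-C, rescaled (circles) and unnormalised (squares), filled where the adjusted p is under 0.05; dotted lines are the medians of all genes tested (-1.36 rescaled, 0.02 unnormalised). COL18A1, COL6A1, COL6A2, COL5A1 and COL4A2 lie left of both medians, and COL6A6 and COL22A1 lie right of both.

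Control library 1 of BE(2)-C stood apart from the other 2 for several collagens on the unnormalised scale. It had 4.05 for COL4A1 beside 6.76 and 6.68, 0.751 for COL6A6 beside 1.93 and 1.90, and 40.4 for COL6A2 beside 31.1 and 30.9. Without it, the unnormalised difference of COL4A1 at 48 h was -0.20 ± 0.06 SE (adjusted p = 0.00775), that of COL6A6 was 0.27 ± 0.07 (adjusted p = 0.00466) and that of COL6A2 was -0.29 ± 0.06 (adjusted p = 0.00045). The ratio of COL6A1 to COL6A2 was 3.01, 2.43 and 2.91 without doxycycline, the lowest in library 1, and 3.17, 3.36 and 3.41 at 48 h, above all 3. The ratio of COL4A2 to COL4A1 (2.49, 3.69 and 2.38, then 2.50, 2.80 and 2.80) overlapped. Library 1 also stood apart for partner genes named below, with 399 for PCOLCE beside 274 and 262 and 44.6 for PLOD3 beside 34.7 and 33.0. It had 8.24 for LOXL1 beside 5.41 and 5.89, and 10.2 for DDR2 beside 38.6 and 41.2. Unnormalised values of PCOLCE, PLOD3 and LOXL1 at 48 h lay below all 3 controls.

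**Figure D5:**
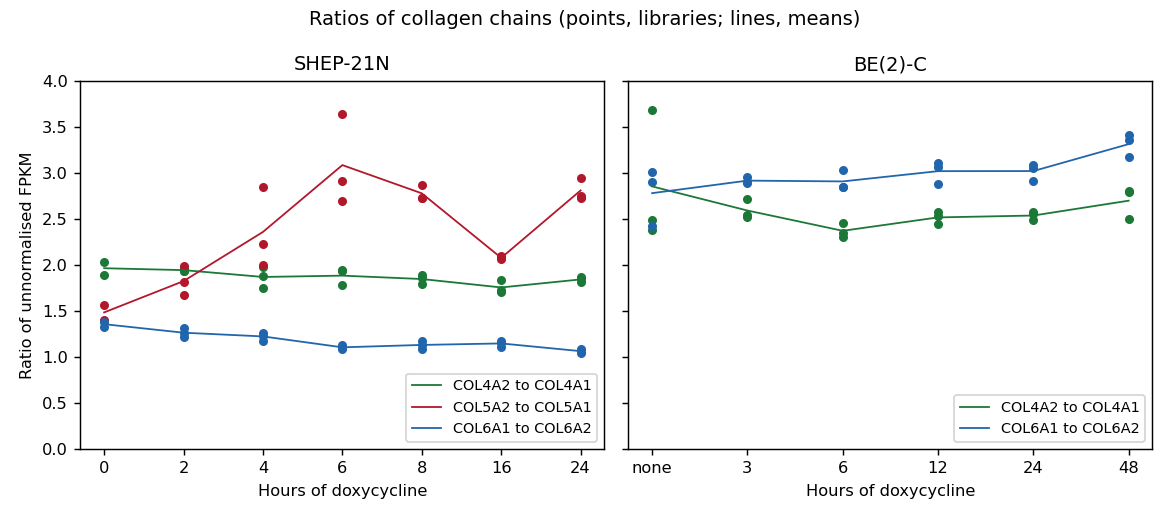
Ratio of unnormalised FPKM between chains of types IV, V and VI against hours of doxycycline in SHEP-21N (left) and BE(2)-C (right), with times evenly spaced on both axes, each point a library and lines through the means. The ratio of COL5A2 to COL5A1 lies above 0 h at every later time in SHEP-21N, and that of COL6A1 to COL6A2 lies below 0 h there and above the untreated libraries at 48 h in BE(2)-C.

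The other collagen-related genes of BE(2)-C fell with the whole table at 48 h. Called lower on the rescaled scale were 10 of 10 tested chain-modifying enzymes, 13 of 13 chaperones and secretion genes, 5 of 5 of propeptide processing, 3 of 4 crosslinking genes, 9 of 10 of breakdown, 3 of 5 receptors and 4 of 4 proteoglycans and fibril partners, with medians from -1.62 to -1.02 and 0 higher in each list. Unnormalised, these lists had 3, 2, 1, 2, 6, 0 and 2 lower and 1, 4, 2, 2, 0, 2 and 1 higher. Over all genes tested, 93.3% were called lower and 0.131% higher rescaled, and 21.3% lower and 18.1% higher unnormalised. MMP14, a membrane-bound collagenase, stood at 9.60, 6.51 and 7.66 rescaled FPKM and then at 0.668, 0.870 and 0.443 (log2 difference -2.42, adjusted p = 3.93e-07), and at -1.66 unnormalised. TIMP2, which binds MMP14, was lower on both scales (-2.47 and -0.86), as were PCOLCE (-2.34 and -0.68), PLOD3 (-2.33 and -0.81), LOXL1 (-1.93 and -0.90) and the small proteoglycan BGN (-2.44 and -0.80), all called. LOXL3, a lysyl oxidase, was called lower rescaled (-0.69, adjusted p = 0.0224) and higher unnormalised (0.40, adjusted p = 0.000617), so that its direction depended on the scale. Its rescaled call was lost when any of 4 single libraries was left out (adjusted p from 0.0556 to 0.107). Of the other genes picked from these lists, PREB (0.063), ITGB1 (0.14), DDR1 (0.12) and DDR2 (0.39) had unnormalised log2 differences above 0. Unnormalised values of GLT25D1, LEPRE1, FURIN, PXDN, MMP2 and DCN at 48 h lay below all control libraries. FKBP14, CREB3L2, BMP1 and SPARC had lower unnormalised means at 48 h, but their libraries overlapped the controls (BMP1 means of 7.90 without doxycycline and 7.77 at 48 h). The unnormalised calls of LEPRE1, FKBP14 and CREB3L2 were each lost in at least 1 fit with a library left out.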

How the data were processed

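Gene levels came from FPKM tables that the authors deposited, 1 unnormalised and 1 rescaled to ERCC spike-ins for each model. HISAT, hg19 and Cufflinks 2.0.0 are named in the submitters' processing notes. The rescaled tables rest on a method not given in the sources used here. Columns were matched to groups by name. Of 49 listed samples, 11 have no column and were not analysed here. The tables hold no read counts, so depth and counting error are unknown.

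The members and gene lists were chosen with earlier results of these data known. Entries with a mean unnormalised FPKM of 1 or more were tested on log2(FPKM + 1) with limma 3.58.1 in R 4.3.3 (intensity trend, 1 fit per model, Benjamini-Hochberg adjustment over all entries tested), and the step was tested on simulated data. Named were collagens called at any time on the rescaled scale or at the latest time on the unnormalised scale. Collagens with a mean of 10 FPKM or more were named too. Partner genes were drawn from the 3 of each list with the smallest adjusted p at the latest time. Not all of these are described: ADAMTS3, LOXL2 and ITGA1, not called in SHEP-21N, and several genes of BE(2)-C have no levels here. Partner chains and marker genes named beside the collagens fall outside these rules. Alternatives were unnormalised values, centring on library medians, a pseudocount of 0.1, no filter, a replicate block and each library left out. Where the unnormalised table lists 0, the rescaled tables hold 0.0706 to 0.127 in SHEP-21N and 0.0377 to 0.201 in BE(2)-C. Promoter windows came from RefSeq (GRCh38.p14). Levels of some single marker genes are not reported here.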

Additional observations from a re-analysis of the deposited data

How the results depend on the processing

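The scale changed most counts of collagens called by limma. In SHEP-21N, unnormalised values gave 2 higher and 6 lower at 4 h, 3 and 9 at 6 h, 4 and 8 at 8 h, 7 and 1 at 16 h, and 11 higher at 24 h against 6 h. Centring gave 2 and 3, 3 and 9, 4 and 8, 7 and 1, and 11. In BE(2)-C, unnormalised values gave 4 lower at 24 h, and 2 higher and 6 lower at 48 h. Centring gave 2 lower at 24 h, and 4 higher and 3 lower at 48 h, where it can lift low genes above 0. Without the filter, 0 were higher and 1 lower at 6 h and 0 lower at 8 h in SHEP-21N, and 33 of 44 were lower at 48 h in BE(2)-C beside 19768 of all 23621 entries, members near 0 included. Leaving out 1 library gave 0 to 1 higher at 4 h, 0 to 1 higher and 0 to 6 lower at 6 h, 0 to 1 in each direction at 8 h, 0 to 3 higher at 16 h, 1 to 4 higher and 0 to 3 lower at 24 h, 0 to 4 higher at 24 h against 6 h, and 9 to 11 lower at 48 h in BE(2)-C. The pseudocount of 0.1 kept all 97 results on their side. Shares of all genes called are not given here for the fits without 1 library, nor for the unfiltered fit at 6 and 8 h. Those counts describe the settings only. The cause of these differences was not tested.

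With the replicate block, 0 were higher and 2 lower at 6 h and 0 lower at 8 h in SHEP-21N. In that model 1 was higher at 16 h and 1 higher at 24 h against 6 h. In BE(2)-C, 10 were lower at 48 h. The share of all genes called with the block is not given here, so these counts describe the setting only. The numbers did not pair the libraries: same-number deviations correlated from -0.284 to 0.181 in SHEP-21N (7 of 57 over 0.1) and from -0.162 to 0.239 in BE(2)-C (5 of 45).

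Directions reversed for COL4A5 at 24 h (0.27 unnormalised, 0.28 centred). At 48 h in BE(2)-C the unnormalised differences were 0.33 for COL22A1, 0.0076 for COL4A1, 0.52 for COL6A6, 0.063 for PREB, 0.40 for LOXL3, 0.14 for ITGB1, 0.12 for DDR1 and 0.39 for DDR2. The centred ones were 0.88 for COL22A1, 0.44 for COL23A1, 0.20 for COL4A1, 1.00 for COL6A6, 0.43 for COL9A2, 0.39 for COL9A3, 0.098 for BMP1, 0.072 for PXDN, 0.73 for LOXL3, 0.27 for DDR1 and 0.25 for DDR2. Because the + 1 understates the fall of low genes, a centred difference above 0 at 48 h need not be a rise. Without 1 library the unnormalised difference ranged from -0.20 to 0.11 for COL4A1 and reached -0.23 for DDR2.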
